A study of Mus musculus with 23 samples.

Results

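Synaptotagmins are a family of genes coding for proteins with paired C2 domains, most of them anchored in the membrane of secretory organelles. The 10 genes described here are Syt1, Syt2, Syt3, Syt4, Syt5, Syt6, Syt7, Syt11, Syt13 and Syt17, and they were taken by matching the Ensembl identifiers of the count tables to the GRCm39 annotation. All 10 were found among the 56941 genes counted, and all 10 passed the filter on low counts, which left 14488 genes to test.

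The RNA came from primary hippocampal neurons, cultured from newborn (P0) mice homozygous for Nedd8cKO, an allele whose exons 2 and 3 lie between loxP sites and are cut out by the CRE recombinase. The cells were infected 1 day after plating with a lentivirus for RFP alone or for CRE tagged with RFP, both expressed from the neuron-specific Synapsin1 promoter, so RFP and CRE libraries share the floxed allele, the infection and the fluorescent protein and differ in the recombinase. The harvest is placed at day 12 by the labels and at day 13 by the study's methods. Of 23 libraries (12 CRE, 11 RFP), 21 (11 CRE, 10 RFP) entered the comparison. They are the libraries of the study's supplementary count table, which lacks CRE 3-3 and RFP 3-2, while its methods name CRE 1-3 and CRE 3-3 as removed, a set in which Syt3 was also called lower. The first number of a library name (1 to 3) is read here as the culture, which the labels do not say in words. That CRE and RFP libraries with the same number share a culture is a further assumption. Log2 fold changes within cultures and tests of a difference between cultures rest on it. Nothing in the labels says that libraries of a culture came from separate dishes or animals, so p-values and SDs measure the spread between libraries, and the study itself counts its animals or biological replicates by a smaller N that matches the cultures. With counts summed per culture, 3 against 3, the same 5 members were called, with adjusted p of 3.52e-04 for Syt17, 0.00126 for Syt1, 0.00998 for Syt11, 0.0411 for Syt6 and 0.0456 for Syt2 by edgeR.

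Gene counts summed to 7430401 to 13345552 per CRE library and to 9833872 to 17112815 per RFP library. Levels are given in CPM, counts per 1000000 counts of a library, with library totals scaled by TMM, and differences come from the quasi-likelihood test of edgeR, with p-values adjusted by Benjamini-Hochberg over the 14488 genes and a call at an adjusted p under 0.05. Nedd8, the targeted gene, stood at 61.4 ± 10.2 CPM in RFP libraries (SD, n = 10) and at 11.5 ± 3.49 CPM in CRE libraries (SD, n = 11), and every CRE library was below every RFP library. Libraries CRE 1-3 and RFP 2-4 stand apart within the comparison, with 0.261% and 3.43% of their counts in mitochondrial genes against 6.997% to 11.1% in the 19 others used and with levels that follow the GC content of genes. The log2 fold change of each member is given with and without them, while values within cultures keep them. CRE 3-3 (1546796 counts) and RFP 3-2 (24.2% of counts in the ribosomal RNA gene Rn18s-rs5) were outside the comparison.

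Synaptotagmins are best known at the synapse. Calcium that enters a nerve terminal binds the C2 domains of Syt1 or Syt2 on the synaptic vesicle (SV), which then act on SNARE proteins and the plasma membrane to set off fast release. Syt1 is the fast sensor of most forebrain neurons, and Syt2 serves the same role in the brainstem, the spinal cord and fast-spiking inhibitory interneurons. Other members bind calcium more slowly and with higher affinity, or lack calcium-binding residues and act in traffic of other vesicles.

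Because the 2 fast sensors moved in opposite directions, the 300 bases upstream of their annotated starts are shown, read 5′ to 3′ on the strand of the gene from GRCm39. The Syt1 window lies at chr10:108846857-108847156 on the minus strand and the Syt2 window at chr1:134573990-134574289 on the plus strand. Capitals mark the E-box CANNTG, bound by neuronal basic helix-loop-helix factors, and the GC box GGGCGG, bound by Sp factors, on either strand.

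Syt1: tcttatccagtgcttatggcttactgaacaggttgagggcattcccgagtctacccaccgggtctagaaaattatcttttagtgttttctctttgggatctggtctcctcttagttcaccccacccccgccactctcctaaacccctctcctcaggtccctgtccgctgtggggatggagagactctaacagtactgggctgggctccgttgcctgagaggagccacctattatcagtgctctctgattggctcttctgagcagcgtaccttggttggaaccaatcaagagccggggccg

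Syt2: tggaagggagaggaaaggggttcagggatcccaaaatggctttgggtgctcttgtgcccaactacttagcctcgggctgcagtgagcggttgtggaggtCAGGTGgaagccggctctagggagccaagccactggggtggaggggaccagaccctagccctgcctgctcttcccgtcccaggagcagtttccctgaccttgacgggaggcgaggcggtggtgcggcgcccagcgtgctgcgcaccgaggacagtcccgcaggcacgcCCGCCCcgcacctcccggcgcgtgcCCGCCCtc

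The Syt1 window held neither of these letter groups, and its GC content was 53.7%. The Syt2 window, at 67.7% GC, held 1 E-box and 2 GC boxes, and outside the capitals also 1 match to TGACG, a part of the cAMP response element. Over all 21769 windows of this length, 71.5% held CANNTG, 37.6% GGGCGG and 19.9% TGACG on either strand. Of the 10 members, 8 had CANNTG, 5 GGGCGG and 4 TGACG, and none had the full element TGACGTCA, present in 1.75% of all windows. CAGATG, a form of the E-box and so counted under it as well, was in the windows of Syt13 and Syt17 and in 15.8% of all windows. These matches describe letters and not binding.

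To compare members with each other, CPM was divided by the length of each gene's exons in kilobases. This length joins the exons of all annotated transcripts, and the transcripts expressed here were not resolved, so order and shares depend on it. In RFP libraries Syt11 had the highest level, at 142 ± 12.6 CPM per kb (SD, n = 10), followed by Syt1 at 88.7 ± 8.497, Syt4 at 63.2 ± 9.98, Syt7 at 26.3 ± 3.11 and Syt5 at 25.7 ± 7.93. The lower part of the order was Syt13 at 10.5 ± 1.84 CPM per kb, Syt3 at 8.51 ± 1.51, Syt17 at 5.62 ± 1.03, Syt6 at 2.57 ± 0.736 and Syt2 at 1.63 ± 0.589 (SD, n = 10 for each). The ranges of neighbours overlapped for Syt1 and Syt4, Syt7 and Syt5, Syt13 and Syt3, Syt3 and Syt17, and Syt6 and Syt2, so the order within these pairs lies inside the spread of libraries. Syt11 lay above Syt1, Syt4 above Syt7, Syt5 above Syt13 and Syt17 above Syt6 without overlap. The gap between Syt11 and Syt1 comes from their exon lengths (8291 and 12899 bases). Before the division they overlapped in RFP libraries, at 997 to 1312 and 1010 to 1327 CPM. In CRE libraries the order by mean was Syt11, Syt4, Syt1, Syt5, Syt7, Syt13, Syt3, Syt2, Syt17 and Syt6, with Syt2 moved from the last place to the 8th.

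**Figure D1:**
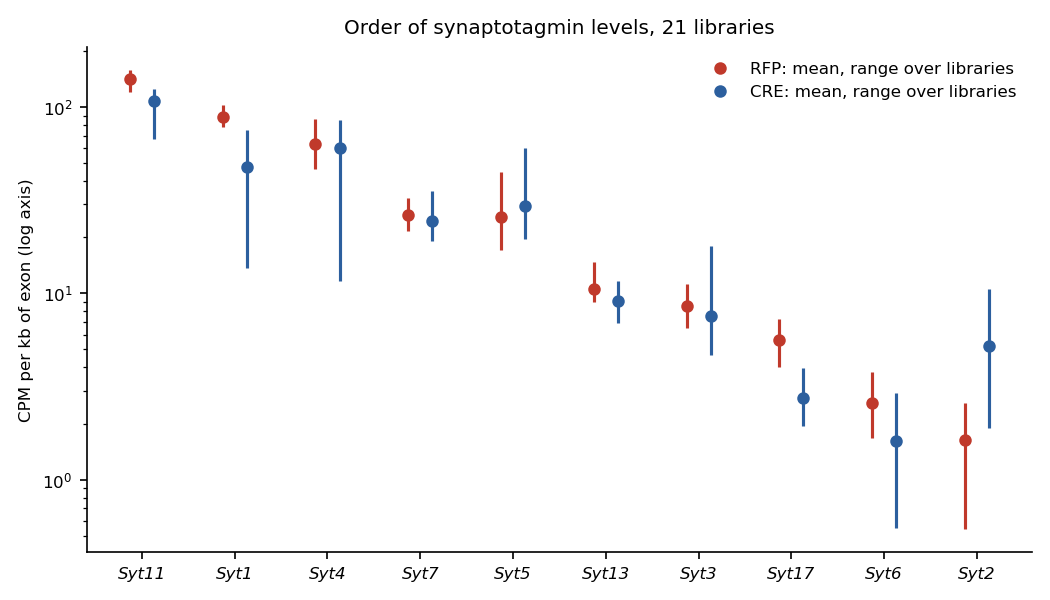
Level of each synaptotagmin in CPM per kb of exon on a log axis, as the mean (point) and range (line) over 10 RFP and 11 CRE libraries. Syt11 had the highest mean in both groups (142 in RFP, 107 in CRE), and Syt2 had the lowest mean in RFP (1.63) and rose to 5.20 in CRE libraries.

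The summed level of the 10 genes per kb was 375 ± 27.8 CPM in RFP libraries (SD, n = 10) and 295 ± 29.1 in CRE libraries (SD, n = 11). As shares of this sum, Syt11 made up 37.9% ± 1.96 in RFP and 36.3% ± 5.00 in CRE libraries. Syt1 made up 23.7% ± 1.47 in RFP and 15.8% ± 5.34 in CRE libraries (SD, n = 10 and 11). The share of Syt4 was 16.9% ± 2.44 and 20.4% ± 7.24, and that of Syt2 was 0.435% ± 0.156 and 1.75% ± 0.844. Most of the family signal per exon length thus came from Syt11, Syt1 and Syt4 in both groups, and Syt2 stayed a small share of it.

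Of the 10 members, 1 was higher in CRE libraries (Syt2) and 4 were lower (Syt1, Syt6, Syt11 and Syt17). Among all genes tested 16.4% were called higher and 13.8% lower, 30.2% in either direction. The median log2 fold change of the members was -0.21, and that of all genes tested was 0.02. In 2 of the 10 members, Syt1 and Syt17, every CRE library lay below every RFP library, a pattern that 2.08% of all genes tested had, and in 0 members did every CRE library lie above every RFP library, as in 2.64% of genes (4.72% in either direction). No member passed the stricter thresholds of 1.3 for the log2 fold change in either direction and 6 for the -log10 of the adjusted p, which 1.09% of genes passed as higher and 0.297% as lower. In these bulk samples, fewer cells that express a gene and less RNA of it per cell cannot be told apart.

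**Figure D2:**
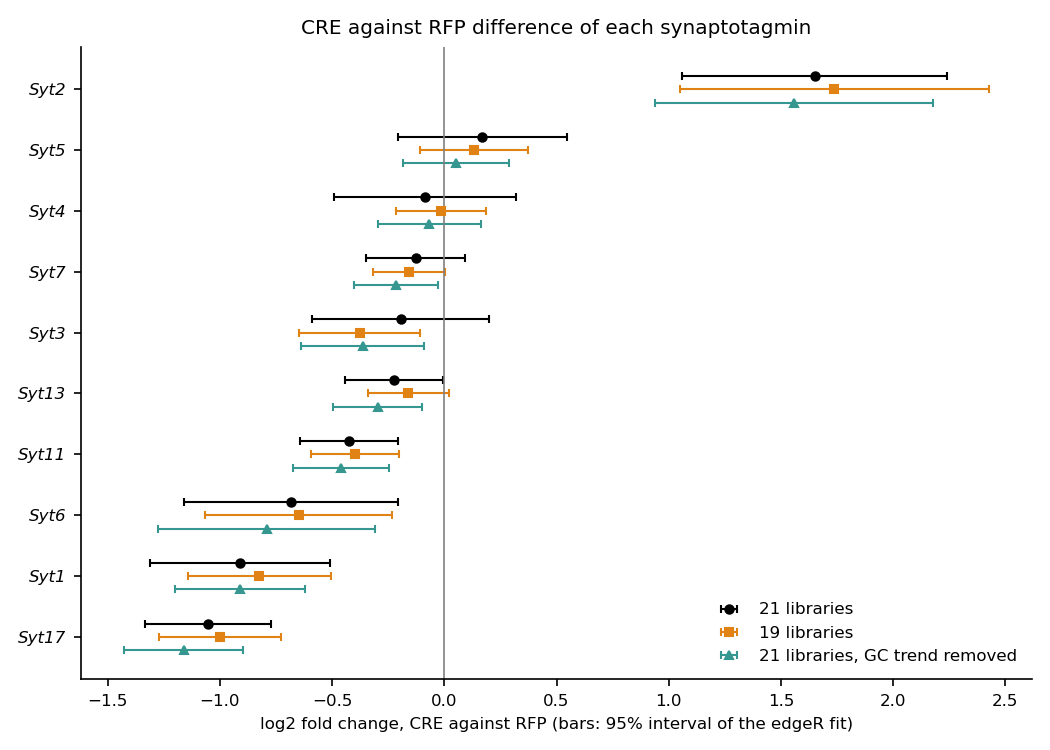
Log2 fold change of CRE against RFP for each synaptotagmin with its 95% interval, in the comparison of 21 libraries, in the 19 libraries left without those that stand apart, and in 21 libraries after removal of the trend with GC content in each library. Syt2 lay above 0 and Syt17, Syt1, Syt6 and Syt11 below 0 in all 3 fits, whereas the interval of Syt3 reached across 0 only with 21 libraries and no GC correction.

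The fast sensors came first by role. Syt1 (ENSMUSG00000035864, chromosome 10 of GRCm39 from 108333505 to 108846856, minus strand, 11 exons in the canonical transcript) ranged in RFP libraries from 1010.5 to 1327 CPM with a median of 1106. In CRE libraries it ranged from 177 to 973 CPM with a median of 661. All 11 CRE libraries were below all 10 RFP libraries, and the lowest value was that of CRE 1-3. The mean was 1144 ± 110 CPM for RFP (SD, n = 10) and 616 ± 249 CPM for CRE (SD, n = 11), and the log2 fold change was -0.91 (SE, standard error, 0.20, 95% interval -1.31 to -0.51, adjusted p = 8.06e-04). Syt1 RNA thus fell by 46.8%. In the 19 libraries without those that stand apart the log2 fold change was -0.82 (adjusted p = 2.02e-04), the CRE range was 379 to 973 CPM and the groups again did not overlap.

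Within cultures, Syt1 had log2 fold changes of -1.34 in culture 1, -0.87 in culture 2 and -0.51 in culture 3, and CRE libraries lay below RFP libraries in each. In culture 1 it went from 1146 ± 104 CPM (SD, n = 3) in RFP to 464 ± 218 (SD, n = 4) in CRE libraries, and in culture 3 from 1052 ± 37.3 (SD, n = 3) to 743 ± 269 (SD, n = 3). The culture 1 value includes CRE 1-3 at 177 CPM, and the other CRE libraries of this culture were at 417 to 661 CPM. The spread between CRE libraries was larger than between RFP libraries in all 3 cultures. A difference of the effect between cultures was not shown (interaction p = 0.246 by edgeR, adjusted p = 0.977).

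Syt2 (ENSMUSG00000026452, chromosome 1 from 134574290 to 134690331, plus strand, 10 exons) was scarce in RFP libraries, from 5.06 to 24.3 CPM with a median of 15.0. In CRE libraries it ranged from 17.8 to 98.9 CPM with a median of 52.0. Here 8 of 11 CRE libraries were above all RFP libraries, and the other 3, CRE 3-1, CRE 3-2 and CRE 3-4, lay within the RFP range and were the CRE libraries of culture 3 compared. CRE 3-3, of the same culture but outside the comparison, was at 58.0 CPM (85 counts), above every RFP library. The mean rose from 15.3 ± 5.52 CPM (SD, n = 10) to 48.7 ± 25.7 CPM (SD, n = 11). The log2 fold change of the edgeR fit was 1.65 (SE 0.29, 95% interval 1.06 to 2.24, adjusted p = 8.41e-05), a 3.14-fold rise. Without the libraries that stand apart the log2 fold change was 1.74 (adjusted p = 3.05e-04).

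Within cultures, Syt2 libraries separated in cultures 1 and 2 and overlapped in culture 3. Its level went from 14.8 ± 2.12 CPM (SD, n = 3) in RFP to 51.3 ± 9.98 (SD, n = 4) in CRE libraries of culture 1, and from 17.7 ± 4.66 to 68.0 ± 27.3 (SD, n = 4 each) in culture 2, log2 fold changes of 1.77 and 1.92 with no overlap. In culture 3 it went from 12.7 ± 8.80 to 19.5 ± 1.503 CPM (SD, n = 3 each), a log2 fold change of 0.62, and the libraries overlapped. The test of a difference between cultures gave p = 0.05002 for Syt2 before adjustment and an adjusted p of 0.977 by edgeR, so a weaker rise in culture 3 was not shown in the 21 libraries. No member had an interaction p under 0.05 before adjustment, none was called after it, and 0.0069% of all genes tested were. Without CRE 1-3 and RFP 2-4, 2 members had an unadjusted interaction p under 0.05 (smallest 0.0049 by edgeR) and again 0 were called. Over all genes tested, 36 were called in this setting and 1 in the 21 libraries. With no filter on low counts 3 members had one (smallest 0.00497 by edgeR), and 0 were called, beside 88 of all genes. Which members these were, and whether Syt2 was among them, is not given here.

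**Figure D3:**
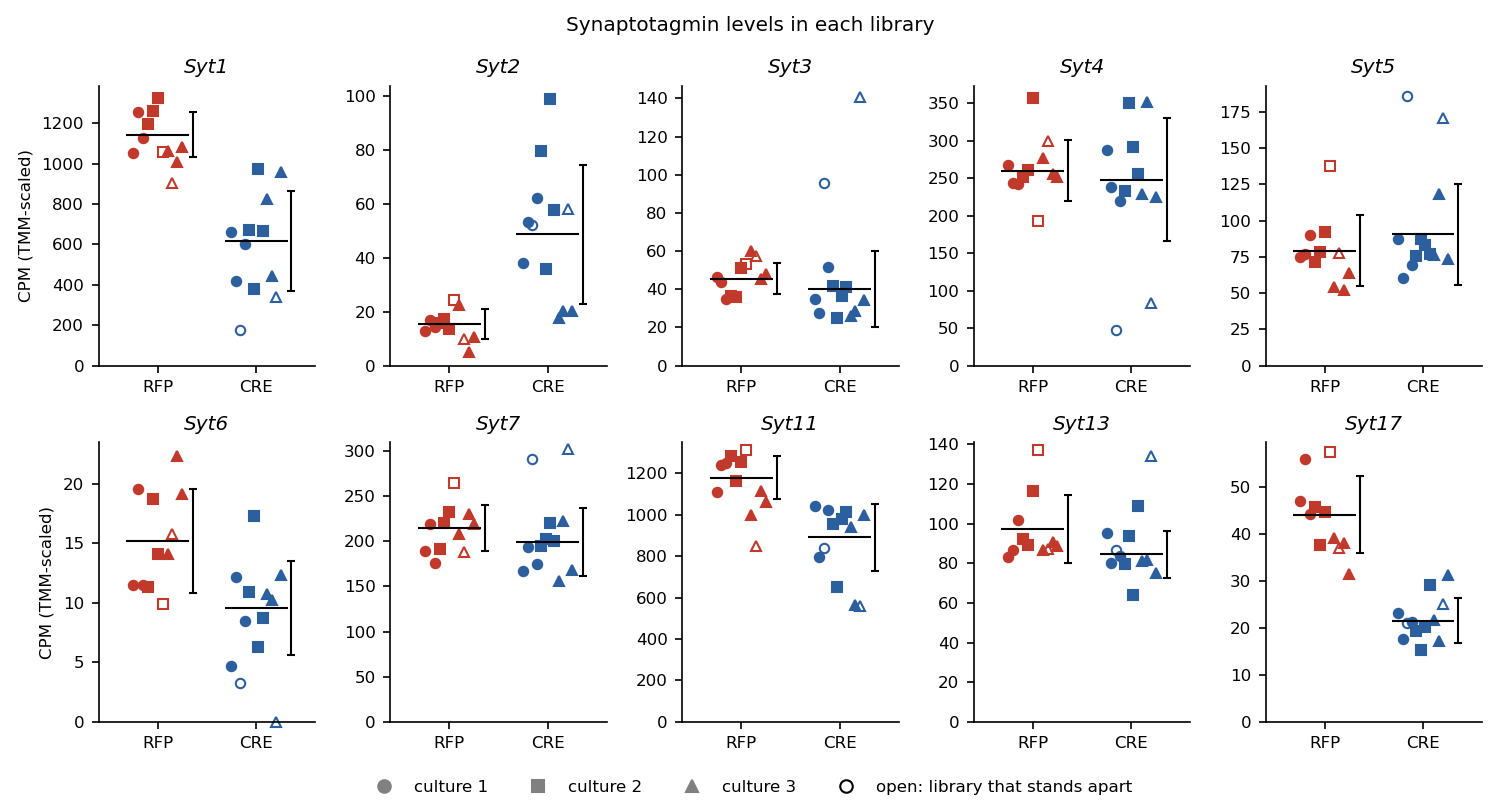
CPM of each synaptotagmin in every library, with RFP on the left and CRE on the right, marker shapes for cultures 1 to 3 and open markers for the libraries that stand apart. Horizontal lines are means and error bars SDs over the 10 RFP and 11 CRE libraries compared. Syt1 and Syt17 show no overlap between these groups, and the 3 filled culture 3 triangles of Syt2 in CRE (17.8 to 20.4 CPM) lie among the RFP libraries.

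The balance between the fast sensors was read within each library as Syt2 per 100 Syt1, both per exon length, so that library scaling drops out. It ran from 0.690 to 3.16 in RFP libraries (median 1.78, n = 10) and from 2.92 to 40.6 in CRE libraries (median 12.96, n = 11). The ranges met only through RFP 2-4, the highest RFP value, and the highest CRE value was that of CRE 1-3. Without the libraries that stand apart the range was 0.690 to 2.89 (median 1.75, n = 9) in RFP and 2.92 to 17.5 (median 12.4, n = 10) in CRE libraries, and the groups did not overlap, though the closest RFP and CRE values nearly met and both were of culture 3. CRE 3-3, outside the comparison, had a ratio of 23.3. This is a description, since both genes had been tested singly. Syt1 remained the more abundant of the fast sensors in every library.

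**Figure D4:**
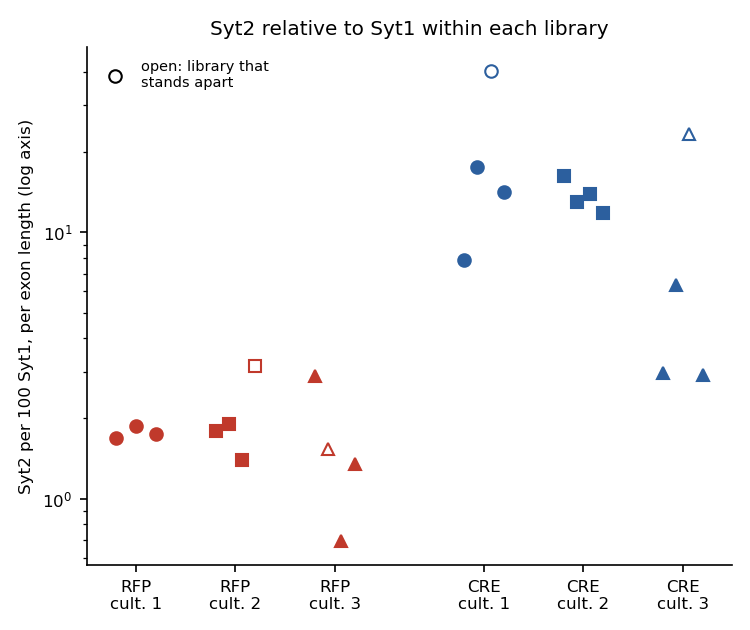
Syt2 per 100 Syt1, each per exon length, in every library by group and culture (cult.), on a log axis, with open markers for the libraries that stand apart. RFP libraries compared lie at 0.690 to 3.16 and CRE libraries at 2.92 to 40.6, and the filled CRE markers of culture 3 are the lowest of their group.

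Syt7 (ENSMUSG00000024743, chromosome 19 from 10366033 to 10430544, plus strand) codes for the slow, high-affinity sensor that acts in asynchronous release and facilitation. It ranged from 176 to 265 CPM (median 219) in RFP and from 156 to 291 CPM (median 195) in CRE libraries. The groups overlapped, and the log2 fold change of -0.13 (95% interval -0.35 to 0.09, adjusted p = 0.400) was not called. Nor was that of -0.16 (adjusted p = 0.111) without the libraries that stand apart. Syt5 (ENSMUSG00000004961, chromosome 7 from 4542756 to 4550922, minus strand), a calcium-binding synaptotagmin of secretory vesicles, ranged from 52.5 to 138 CPM (median 76.1) in RFP and from 60.3 to 186 CPM (median 77.3) in CRE libraries. Syt5 had a log2 fold change of 0.17 (95% interval -0.21 to 0.55, adjusted p = 0.535), and its highest values in the 2 groups were those of RFP 2-4 and CRE 1-3. With these libraries kept, the sign of Syt5 varied within cultures, with log2 fold changes of 0.29, -0.25 and 0.65 in cultures 1, 2 and 3. The other CRE libraries of culture 1 were at 60.3 to 87.7 CPM, against 74.8 to 90.2 in RFP. The other RFP libraries of culture 2 were at 71.6 to 92.5 CPM, against 75.4 to 87.6 in CRE. Over the 19 libraries without those that stand apart the log2 fold change was 0.13 (adjusted p = 0.402).

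Syt3 and Syt6 code for synaptotagmins that form disulfide-linked dimers and bind calcium with high affinity. Syt6 (ENSMUSG00000027849, chromosome 3 from 103482484 to 103552885, plus strand) ranged from 9.90 to 22.4 CPM (median 14.1) in RFP and from 3.27 to 17.3 CPM (median 10.3) in CRE libraries. With 5 of 11 CRE libraries below all RFP libraries and the rest within their range, the log2 fold change was -0.68 (SE 0.23, adjusted p = 0.0266). This call was the weakest of the 5. It was lost when RFP 3-3, the highest RFP library, was left out (-0.61, adjusted p = 0.0575) and with library totals in place of TMM (-0.58, adjusted p = 0.0624). It was also lost without culture 1 (-0.53, adjusted p = 0.101), culture 2 (-0.89, adjusted p = 0.0647) or culture 3 (-0.66, adjusted p = 0.117), each a fit with fewer libraries. The call held in 12 of 17 other settings. Among them were the 19 libraries without those that stand apart (-0.65, adjusted p = 0.0125) and the fit with the GC trend removed (-0.79, adjusted p = 0.00899). The lowest CRE value was that of CRE 1-3, from 24 counts.

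Syt3 (ENSMUSG00000030731, chromosome 7 from 44022982 to 44049611, plus strand) ranged from 34.9 to 60.0 CPM (median 45.8) in RFP and from 24.9 to 95.5 CPM (median 35.0) in CRE libraries. The difference of -0.19 on the log2 scale (95% interval -0.59 to 0.20, adjusted p = 0.488) was not called. CRE 1-3 was at 95.5 CPM, and no other CRE library compared was above 51.8. Without CRE 1-3 the log2 fold change was -0.40 (adjusted p = 0.0143), and without all libraries that stand apart it was -0.38 (adjusted p = 0.0246), from 44.7 ± 8.08 CPM (SD, n = 9) to 34.8 ± 8.44 CPM (SD, n = 10). With the trend with GC content removed in 21 libraries it was -0.36 (adjusted p = 0.0329), and with all 23 libraries it was 0.037 (adjusted p = 0.929). Within cultures 1, 2 and 3, with CRE 1-3 kept, Syt3 had log2 fold changes of 0.30, -0.31 and -0.78. Its groups did not overlap only in culture 3. Without culture 3 the log2 fold change was 0.00084 (adjusted p = 0.999 by edgeR).

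Syt4, Syt11 and Syt13 code for synaptotagmins that lack calcium binding in one or both C2 domains. Syt11 (ENSMUSG00000068923, chromosome 3 from 88632134 to 88682471, minus strand), a regulator of endocytosis, ranged from 997 to 1312 CPM (median 1201) in RFP and from 562 to 1041 CPM (median 955) in CRE libraries. With 7 of 11 CRE libraries below all RFP libraries, its level fell by 25.4%, a log2 fold change of -0.42 (SE 0.11, 95% interval -0.64 to -0.21, adjusted p = 0.00325). It was -0.40 (adjusted p = 0.0015) without the libraries that stand apart. The values within cultures were alike, at -0.41, -0.50 and -0.35 in cultures 1, 2 and 3, and the call was lost only without culture 2 (-0.35, adjusted p = 0.143) among the settings run.

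Syt4 (ENSMUSG00000024261, chromosome 18, minus strand), found on dense-core vesicles and induced by neuronal activity, ranged from 192 to 357 CPM (median 253) in RFP and from 48.0 to 351 CPM (median 238) in CRE libraries. The log2 fold change of Syt4 was -0.09 (95% interval -0.49 to 0.32, adjusted p = 0.791), and 10 of 11 CRE libraries lay within the RFP range, the exception being CRE 1-3 at 48.0 CPM. The lowest RFP value was that of RFP 2-4, and without the libraries that stand apart 5 of 10 CRE libraries lay within the RFP range, which then began at 243 CPM, and 5 lay below it. The log2 fold change over these 19 libraries was -0.01 with a narrower interval, -0.21 to 0.18 (adjusted p = 0.925). Syt13 (ENSMUSG00000027220, chromosome 2) ranged from 83.1 to 137 CPM (median 90.1) in RFP and from 64.1 to 109 CPM (median 81.6) in CRE libraries. The difference of Syt13, with a log2 fold change of -0.22 (95% interval -0.44 to -0.0060, adjusted p = 0.116), was not called, and it was called with the GC trend removed (-0.30, adjusted p = 0.0169) and without CRE 2-4 (-0.30, adjusted p = 0.0370). Without the libraries that stand apart it was -0.16 (adjusted p = 0.154) and not called.

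Syt17 (ENSMUSG00000058420, chromosome 7), also named B/K protein, has no membrane-spanning segment and sits at the Golgi. It ranged from 31.6 to 57.5 CPM (median 44.5) in RFP and from 15.4 to 31.3 CPM (median 20.98) in CRE libraries. All 11 CRE libraries were below all RFP libraries, though the highest CRE value (CRE 3-4) and the lowest RFP value (RFP 3-4) were close. The mean went from 44.2 ± 8.12 CPM (SD, n = 10) to 21.6 ± 4.85 CPM (SD, n = 11). The log2 fold change of the edgeR fit was -1.05 (SE 0.14, 95% interval -1.33 to -0.77, adjusted p = 1.69e-06), a fall of 51.8% and the smallest adjusted p of the 10. The groups did not overlap in any culture, with log2 fold changes of -1.27, -1.17 and -0.64 in cultures 1, 2 and 3, and without the libraries that stand apart the value was -1.001 (adjusted p = 8.23e-07).

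The shifts of members in CRE 1-3, RFP 2-4 and CRE 3-3 went with base composition. The exons of Syt4 (40.5% GC) and Syt1 (41.8%) were the lowest in GC, those of Syt11 (47.3%), Syt13 (48.8%), Syt6 (50.9%), Syt17 (52.8%) and Syt2 (53.5%) lay between, and those of Syt3 (56.3%), Syt5 (56.9%) and Syt7 (57.1%) were the highest. In CRE 1-3, relative to the median of the other CRE libraries compared, Syt4 was at -2.36 on the log2 scale, Syt1 at -1.91 and Syt6 at -1.69, while Syt3 was at 1.46, Syt5 at 1.28 and Syt7 at 0.58. Syt2 (0.19) and Syt17 (0.01) were near the median of their group in this library. The Spearman correlation of the deviation with GC content over the 10 genes was 0.891 in CRE 1-3, 0.6 in RFP 2-4 and, over the 9 genes with a count, 0.8 in CRE 3-3, as a description of single libraries across genes. The part of base composition in the differences between groups was not tested, and with the trend removed Syt1, Syt2 and Syt17 had log2 fold changes of -0.91, 1.56 and -1.16.

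**Figure D5:**
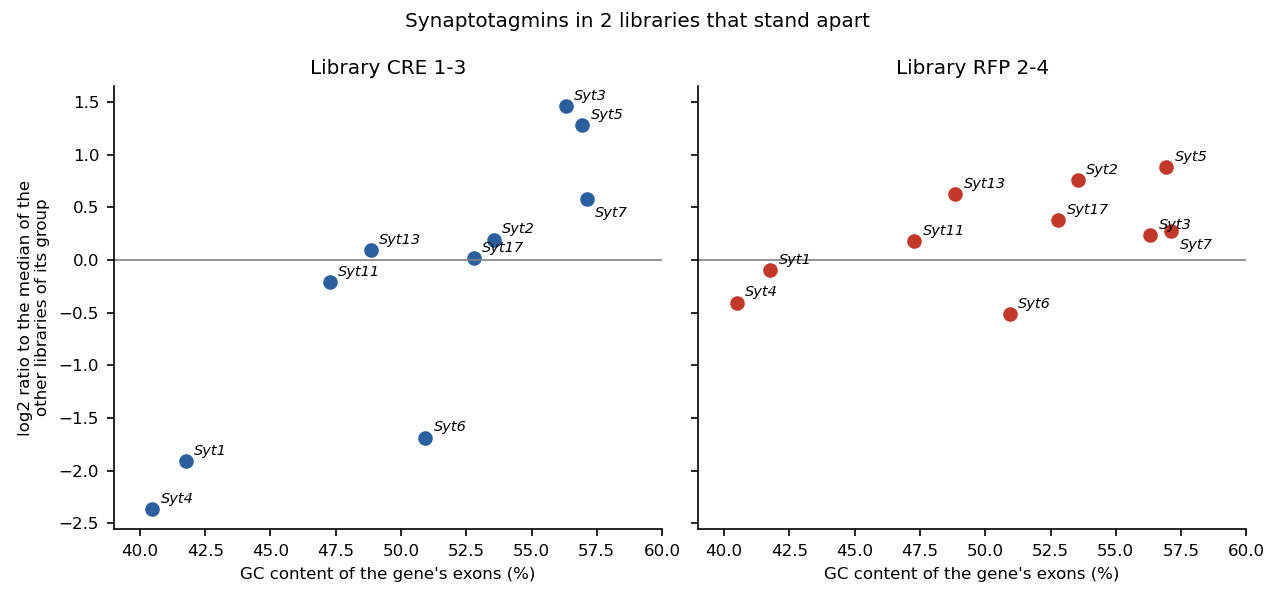
Deviation of each synaptotagmin in CRE 1-3 (left) and RFP 2-4 (right) from the median of the other libraries of its group, as a log2 ratio, against the GC content of the gene's exons in percent. In CRE 1-3 the points run from -2.36 (Syt4, 40.5% GC) to 1.46 (Syt3, 56.3% GC), and in RFP 2-4 from -0.51 (Syt6) to 0.88 (Syt5).

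Of the 7 other synaptotagmins, 5 could be tested, 0 were higher and 1 was lower by edgeR, beside the 16.4% and 13.8% of all genes tested. Syt16, an atypical member without calcium binding, went from 70.2 ± 7.27 CPM (SD, n = 10) in RFP to 40.2 ± 9.55 with CRE (SD, n = 11), or by a log2 fold change of -0.82 (SE 0.13, adjusted p = 1.60e-05), with all CRE libraries below all RFP libraries. Syt9 (0.23, adjusted p = 0.398), Syt10 (-0.23, 0.698), Syt12 (0.53, 0.163) and Syt14 (0.05, 0.884) were not called, and none of the 5 had an unadjusted p under 0.05 in the higher direction. Syt15 was too low to test, at 0.263 ± 0.536 CPM in RFP (SD, n = 10) and 1.12 ± 0.699 CPM in CRE libraries (SD, n = 11), and Syt8 had at most 1 count in a library.

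Among relatives with C2 domains (Doc2, rabphilin, Sytl, Esyt and Mctp genes), 10 of 14 were tested, with 2 called higher, 4 lower and a median log2 fold change of 0.09. The largest were Esyt3 (2.90, adjusted p = 1.66e-04), a tether between the endoplasmic reticulum and the plasma membrane that was at 0.432 ± 0.396 CPM (SD, n = 10) in RFP libraries, Mctp1 (-1.49, adjusted p = 8.70e-07) and Doc2a (-1.33, adjusted p = 0.00202), a calcium sensor of spontaneous and asynchronous release. Among partners of synaptotagmins in release (SNAREs, complexins, SV2, Munc13 and RIM genes), 18 of 20 were tested, with 3 called higher, 11 lower and a median of -0.36. Cplx2, a complexin that binds the assembled SNARE complex, had the largest change at -1.41 (adjusted p = 1.00e-09), followed by the vesicle protein gene Sv2b at -1.06 (adjusted p = 1.55e-05) and the plasma membrane SNARE gene Stx1a at -1.04 (adjusted p = 3.82e-05). These counts stand beside the 16.4% of all genes tested called higher and the 13.8% called lower.

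The labelled cell type was present in its defining markers, and marker levels moved with the groups. The summed level of 6 general neuron markers was 1894 to 3544 CPM in CRE and 3779 to 4665 CPM in RFP libraries, which did not overlap. The lowest CRE sum was that of CRE 1-3, and without this library the groups also did not overlap. Of these 6 markers, 4 were lower and 0 higher, with a median log2 fold change of -0.70. For 7 glutamatergic markers the sums were 393 to 1046 and 1208 to 2161 CPM (3 lower, 1 higher, median -0.58), and for 13 GABA neuron markers they were 1542 to 2863 and 2155 to 3467 CPM (3 lower, 4 higher, median 0.16). Genes of the GABA list went both ways, and 3 of them are named here after their values were seen. Pvalb, a marker of fast-spiking interneurons, was at 0 to 6.81 CPM (median 0.410) in RFP and 1.34 to 10.5 CPM (median 4.00) in CRE libraries. It rose by 2.05 on the log2 scale (adjusted p = 0.0183), with 3 of 11 CRE libraries above all RFP libraries. The interneuron peptide genes Sst (-1.07, adjusted p = 0.00420) and Vip (-2.19, adjusted p = 2.81e-04) were lower. Glia were present as well, with 8 astrocyte markers at 1559 to 5126 CPM in CRE and 3612 to 7845 in RFP libraries (4 lower, 1 higher, median -0.66) and 8 oligodendrocyte lineage markers at 425 to 1910 and 647 to 1867 CPM (5 lower, 0 higher, median -0.99). Of 6 Cajal-Retzius markers 4 were tested (1 lower, 0 higher, median -0.74), of 7 microglia markers 2 (1 higher, 0 lower, summed level at most 7.70 CPM), and of 9 endothelial and mesenchymal markers 7 (1 higher, 1 lower, summed level 16.4 to 381 CPM in CRE and 17.6 to 145 in RFP libraries). Beside the counts of these lists, 16.4% of all genes tested were called higher and 13.8% lower. No gene of these lists was at 0 in every library. The part of cell composition in the synaptotagmin differences was not tested.

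Genes whose levels followed Syt2 and Syt17 most closely were taken over the 19 libraries, after subtracting each group's mean from log2 CPM, among 14366 genes. For Syt2 the highest Pearson coefficients were those of Rnf14 (0.865), Atp1b1 (0.851), Abr (0.841), Gas6 (0.839) and Slc25a4 (0.826). For Syt17 they were those of Etv1 (0.845), Cmtm4 (0.835), Bcl7a (0.831), Hpcal4 (0.823) and Pde1a (0.821). All 5 genes of the Syt17 group were lower in CRE libraries, with log2 fold changes from -1.57 (Etv1) to -0.49 (Cmtm4), whereas those of the Syt2 group ranged from -0.42 (Atp1b1) to 0.54 (Gas6). These coefficients describe libraries that share cultures and are the highest of many.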

How the data were processed

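The authors prepared libraries with a stranded Illumina mRNA kit, aligned reads to GRCm39 with Ensembl release 110 (bcl2fastq 2.20.0.422, STAR 2.7.8a and featureCounts 1.5.0-p1 in the submitters' processing notes) and deposited raw counts per gene for each library. The strand and multimapping settings are not given in the sources used here, so counts of members that overlap other genes on the opposite strand (all but Syt1, Syt2 and Syt17) are less certain. Of a member's transcript stretches of 50 bases, between 0% (Syt1) and 16.7% (Syt11) also occurred in transcripts of other genes on either strand, so overlaps with genes on the opposite strand are included.

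Genes were named from GENCODE M39 (56323 of 56941 matched, 99.95% of counts). Tests ran in R 4.3.3 and edgeR 4.0.16 (filterByExpr, TMM, robust quasi-likelihood fit, adjusted p over all genes tested). CPM used TMM factors of all 23 libraries. The standard error is the log2 fold change over the root of F. DESeq2 1.42.0 and limma 3.58.1 (voom) were alternatives, and figures came from matplotlib 3.10.9. Counting depth per library is given with the results.

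The members and lists were chosen with earlier results of these data known. Named were all members, the targeted gene, the other synaptotagmins, at most 3 called relatives and partners per list by size of change, and 5 genes most like the members with the largest rise and fall. Leaving out single libraries and the culture block over all 23 were chosen after seeing the data. Between libraries of a group, counts differed beyond sampling noise in all 121 pairs. Same-numbered cultures of the 2 groups did not deviate together in every culture. Their correlations were 0.04, 0.04 and 0.13 in cultures 1, 2 and 3, and the highest with another number were 0.15, 0.05 and 0.05. The pairing of CRE and RFP libraries by number is thus not shown by the data for cultures 1 and 2.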

Additional observations from a re-analysis of the deposited data

Results flagged for a closer look

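Over the 10 groups of RFP levels tested for a library far from the others, 2 had one, and chance gives about 1 in 20. Syt4 was at 357 CPM in RFP 2-3, with the next RFP library at 278, a gap of 0.484 of the whole range against a critical 0.466. Syt5 was at 138 CPM in RFP 2-4, one of the libraries that stand apart, with the next RFP library at 92.5, a gap of 0.530 of the range. Neither gene was called between groups.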

How the results depend on the processing

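Syt2 was the 1 member called higher in all settings but the stricter thresholds (0 higher, 0 lower). Syt1, Syt2 and Syt17 were called in all 17 other settings, with log2 fold changes of -1.11 to -0.71, 1.41 to 1.82 and -1.23 to -0.95 and adjusted p of at most 0.0341, 0.0456 and 0.00231, and with each of the 21 libraries left out. The number called lower was 4 with DESeq2, limma-voom, DESeq2 size factors, no filter, all 23 libraries and sums per culture, and 3 with library totals, which moved the median of all genes to 0.11. It was 5 without the libraries that stand apart and in the set that the methods leave (without CRE 1-3 and CRE 3-3), where Syt3 was added, and 6 with the GC trend removed (Syt3 and Syt13 added), also with the replicate block. Leaving out a culture or a library gave 2 to 5 (2 without culture 2). With culture number or library number as a replicate block the counts stayed at 1 higher and 4 lower. The block over all 23 libraries gave 3 lower, without Syt6 (adjusted p = 0.0559). Signs turned only in members without a call: Syt3 to 0.037 with all 23 libraries and 0.020 with the block over these, Syt4 to 0.025 in the methods' set and 0.011 with library totals. Leaving out a culture or a library moved Syt3 from -0.51 to 0.00084, Syt4 from -0.19 to 0.058 and Syt5 from -0.0033 to 0.47. The causes were not tested. Of the members, Syt6 had the lowest minimum and the lowest maximum count, 24 and 283 per library compared.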
